A study of Mus musculus with 6 samples.

Results

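The genes described here are 10 regeneration-associated growth cone genes, which are Gap43, Basp1, Stmn2, Stmn3, Stmn4, Sox11, Klf6, Klf7, Sprr1a and Gal. They were chosen by symbol, and all 10 were found among the 24419 genes of the table. They were followed over 6 libraries of sorted, neuron-enriched cells from cerebral cortex bordering an infarct in male mice, taken 4 days after the middle cerebral artery had been blocked for 60 min. The 3 libraries labelled control came from mice of genotype Padi4flox/flox. The 3 labelled cKO came from mice of genotype Slc17a7-cre; Slc32a1-cre; Padi4flox/flox, in which Cre is driven from the vesicular transporter genes of glutamatergic and of GABAergic neurons. Both groups therefore carry the loxP-flanked Padi4 alleles and both had the stroke. The labels give no age and do not say whether animals were pooled. They record 75 min of pronase for every library, and the part of this step in the levels below was not tested. Cells were kept if they carried Thy1 and lacked ACSA2, CD31, CD45 and O4, surface marks of astrocytes, endothelium, leukocytes and oligodendrocytes. The design addresses what loss of Padi4 from neurons does to their transcripts after ischemia.

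Neurons that regrow an axon after injury switch on a set of genes that is otherwise typical of development. Transcription factors such as Sox11, Klf6 and Klf7 act at the top of this programme. Below them stand proteins of the growth cone, the motile tip of the axon, which bind its membrane and actin (Gap43, Basp1) or its microtubules (the stathmins Stmn2, Stmn3 and Stmn4), and induced effectors such as Sprr1a and the neuropeptide galanin (Gal). In peripheral sensory neurons the response is strong, while in adult cortex it is known to be weaker.

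Values are the deposited read counts scaled to library size (scaled CPM). Libraries held 10094145 to 24056755 reads, and both libraries numbered 2 had the fewest detected genes, 15261 and 14042 against 16818 to 17891 in the other 4. Padi4, the targeted gene, had 0 reads in each of the 3 libraries labelled control, and 0, 3 and 12 reads under the cKO label. The direction was against the labels, but on few reads, most of them in cKO replicate 3, the deepest library. An exact permutation test of its log2 level gave p = 0.4. Padi4 was too low for the main test and cannot decide here whether the labels hold. The labels do not say which exons the loxP sites flank. All group names below are the labels, and every direction is one between labels. Neuronal markers were present in all libraries, together with markers of other cells. Summed over 12 markers, pan-neuronal levels ran from 3731 to 6895 under the control label and from 2299 to 8678 under the cKO label. The 10 mature oligodendrocyte markers summed to 21040 to 26360 and 10843 to 31788, more than the neuronal ones in every library, and 12 pericyte, smooth muscle and fibroblast markers to 523 to 6919 and 239 to 4066. None of the markers was called between labels: 9 of 12 pan-neuronal ones had a higher and 3 a lower mean under the cKO label, against 1 and 9 of the 10 mature oligodendrocyte ones and 3 and 9 of the 12 pericyte, smooth muscle and fibroblast ones. Astrocyte markers summed to 580 to 1143 under the control label and 850 to 1861 under the cKO label, although the sort was against ACSA2, with 8 of 9 higher and 1 lower under the cKO label and the largest median log2 fold change of these lists, 0.53. Glutamatergic markers had 3 higher and 4 lower (median -0.04) and GABAergic markers 3 higher and 5 lower (median -0.32), unlike the pan-neuronal ones (median 0.20). The part of these cells in the results below was not tested. Endothelial markers (7) summed to at most 145 and microglial and macrophage markers (9) to at most 70.5 in any library, the microglial genes Tmem119, C1qa and Ptprc being at 0 in some. In such bulk samples, fewer cells of a type and less RNA per cell cannot be told apart.

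The stathmin genes are close relatives, and Stmn4 had its high and low values in other libraries than Stmn2 and Stmn3 did, as the values further on show. Their shared sequence is given here because reads from stretches where relatives match can be hard to place. Whether any reads were exchanged was not tested. The stretch of 60 coding bases with the most matches covers the start of the proteins, where Stmn2, Stmn3 and Stmn4 carry a membrane anchor with paired cysteines that stathmin 1 lacks. Sequences are 5′ to 3′ on the coding strand, from GENCODE M21 transcripts (mm10 coordinates), and capitals mark the 42 bases that are identical in all 3 genes. The genomic spans include an intron.
Stmn2, coding bases 19 to 78, chr3:8509630-8541899, plus strand: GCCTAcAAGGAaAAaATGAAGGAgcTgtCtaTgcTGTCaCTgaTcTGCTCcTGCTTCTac
Stmn3, coding bases 19 to 78, chr2:181309184-181314194, minus strand: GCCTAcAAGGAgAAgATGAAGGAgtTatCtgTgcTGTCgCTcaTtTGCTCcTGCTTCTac
Stmn4, coding bases 13 to 72, chr14:66354445-66355644, plus strand: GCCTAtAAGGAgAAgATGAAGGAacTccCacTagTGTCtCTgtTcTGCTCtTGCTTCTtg
Within this stretch Stmn3 differed from Stmn2 at 8 bases and Stmn4 at 15. Over the whole coding sequence, Stmn2 and Stmn3 were 73.6% identical, Stmn2 and Stmn4 70.4%, and Stmn3 and Stmn4 68.8%. The longest exact run that 2 of these 3 transcripts shared was 21 bases, between Stmn2 and Stmn3. Stmn1, which encodes stathmin 1, shared a longer run of 43 bases with Stmn2. Neither the read length nor the treatment of reads that match several genes is stated in the labels.

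Promoters are shown for Sprr1a, whose near absence is described below, and for Basp1 and Stmn3, highest in cKO replicate 3, and Klf6, highest in control replicate 1. Each is the 250 bases before the RefSeq start (GRCm38.p6), 5′ to 3′ on the gene's strand. Capitals mark matches, on either strand, to 5 motifs. These were the TATA box with the letters TATAAA, the CCAAT box with the letters CCAAT, the GC box with the letters GGGCGG, the AP-1 site with the letters TGANTCA and the cAMP response element with the letters TGACGTCA. Matches may overlap, as the last GC boxes of Basp1 do.
Sprr1a, chr3:92485882-92486131, minus strand: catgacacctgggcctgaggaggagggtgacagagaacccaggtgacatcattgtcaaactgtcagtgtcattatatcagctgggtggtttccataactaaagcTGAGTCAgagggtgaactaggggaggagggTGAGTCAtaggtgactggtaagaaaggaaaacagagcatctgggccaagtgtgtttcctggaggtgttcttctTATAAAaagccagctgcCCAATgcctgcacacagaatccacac
Basp1, chr15:25413765-25414014, minus strand: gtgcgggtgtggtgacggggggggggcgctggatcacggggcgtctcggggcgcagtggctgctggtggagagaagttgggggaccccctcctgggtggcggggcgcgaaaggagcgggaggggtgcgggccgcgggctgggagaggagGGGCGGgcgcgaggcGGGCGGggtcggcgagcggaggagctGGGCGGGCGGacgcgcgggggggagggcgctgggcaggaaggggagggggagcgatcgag
Stmn3, chr2:181314501-181314750, minus strand: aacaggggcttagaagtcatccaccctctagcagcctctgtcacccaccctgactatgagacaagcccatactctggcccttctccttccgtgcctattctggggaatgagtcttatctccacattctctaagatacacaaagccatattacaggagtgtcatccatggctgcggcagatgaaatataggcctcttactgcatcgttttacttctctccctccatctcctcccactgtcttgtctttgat
Klf6, chr13:5861239-5861488, plus strand: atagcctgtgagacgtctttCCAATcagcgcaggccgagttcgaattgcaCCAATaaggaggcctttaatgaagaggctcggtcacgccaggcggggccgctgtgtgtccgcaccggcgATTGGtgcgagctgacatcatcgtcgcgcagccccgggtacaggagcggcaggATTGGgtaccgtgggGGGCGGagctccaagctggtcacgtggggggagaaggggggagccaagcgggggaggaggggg
The Sprr1a window held 2 AP-1 matches, starting 146 and 116 bases before the start, a TATA box at 43 and a CCAAT box at 26. Among all 32851 promoter windows of this length, 6.75% held an AP-1 match and 12.4% a TATA box. Basp1 had 4 GC boxes in a window of 78.8% G and C, and Klf6 had 4 CCAAT boxes and 1 GC box, where 32.7% of all windows held a GC box and 33.8% a CCAAT box. The Stmn3 window held none of the 5 motifs. Of the 7 genes in the promoter table (Basp1, Stmn3, Sox11, Klf6, Klf7, Sprr1a and Gal), Sprr1a was the one with an AP-1 match in this window. A match is a description of letters and not a binding site.

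Across the labelled groups, no difference passed the test for any of the 8 growth cone genes abundant enough to be tested. Their intervals, given below, still include sizeable changes in both directions. Of the 10 genes, 8 passed the filter on low values, and limma called 0 of them at an adjusted p under 0.05, with adjusted p = 0.9996 for each. At an unadjusted p under 0.05 the count was also 0 of 8, the smallest being 0.360 for Stmn4. Over all 14796 genes tested, 0% were called higher and 0% lower, and 0.338% were higher and 0.514% lower at the unadjusted threshold. The 8 genes split evenly, with 4 means above and 4 below 0 on the log2 scale and a median log2 fold change of 0.0031, beside -0.02 over all tested genes. In 0 of the 8 did the groups part without overlap, where this held for 4.7% of all tested genes, 2.45% with the cKO label higher and 2.26% with it lower. On the recovered reads edgeR called 0% of all genes and DESeq2 called 0% higher and 0.00678% lower, and both called 0 of the 8. At the unadjusted threshold edgeR had 0.277% higher and 0.216% lower, and DESeq2 0.657% and 0.529%.

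Per kilobase of exon in protein-coding transcripts, Stmn4 stood first, at 125 ± 41.3 scaled CPM per kb (SD over 6 libraries). Stmn3 and Basp1 followed at 76.6 ± 49.7 and 76.2 ± 32.4, then Stmn2 at 47.9 ± 31.7, Klf6 at 42.6 ± 19.96 and Gap43 at 29.8 ± 5.75. Sox11, at 5.44 ± 1.64, and Klf7, at 4.36 ± 0.852, were the lowest of the 8. Along this order each gene's range over the libraries overlapped the next one's, except between Gap43 and Sox11, where Gap43 was higher in 6 of 6 libraries. The lengths come from GENCODE M21, which may not be the annotation used for counting.

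**Figure D1:**
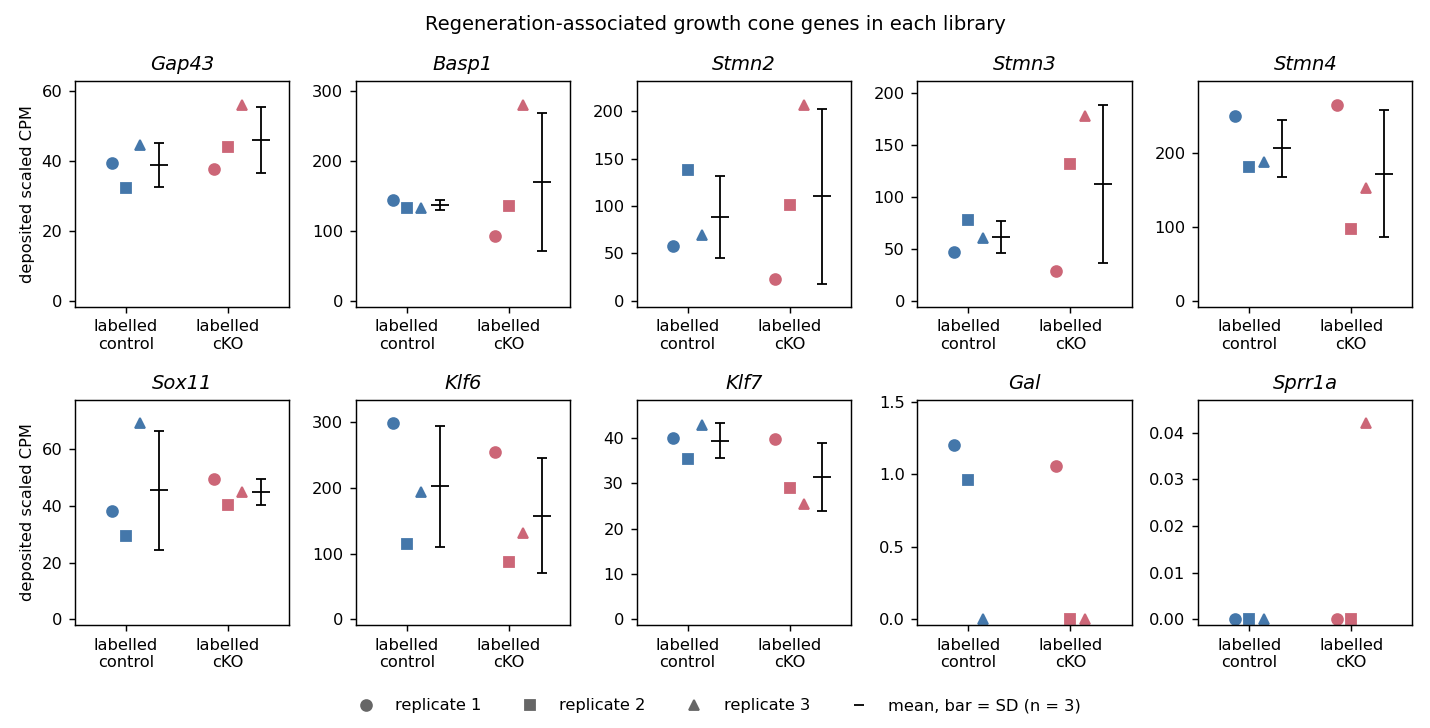
Scaled CPM of each of the 10 genes (vertical axes, a separate scale per gene) in the 3 libraries labelled control (blue) and the 3 labelled cKO (red), with symbols for the replicate number; black marks give the mean and SD of each group, left out for Gal and Sprr1a, whose values are mostly 0. The groups overlap in every panel of the 8 tested genes, and under the cKO label Stmn2 ranges from 23.0 to 207 and Stmn3 from 28.6 to 177.

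Gap43 encodes the growth-associated protein of the growth cone membrane, a substrate of protein kinase C that binds calmodulin. It spans chr16:42248442-42340651 (mm10, minus strand), with a microRNA gene, Mir6540, inside it. Gap43 was at 39.4, 32.1 and 44.7 under the control label and at 37.7, 43.9 and 56.2 under the cKO label. Its SD over the 6 libraries on the log2 scale, 0.27, was the smallest of the 5 membrane and microtubule genes, with cKO replicate 3 highest, control replicate 2 lowest and the groups overlapping. The log2 fold change was 0.23 (SE 0.35, 95% interval -0.54 to 1.01), with an adjusted p = 0.9996 in limma. It was 0.11 without control replicate 2, 0.36 without cKO replicate 1 and 0.083 without cKO replicate 3.

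Basp1 encodes a myristoylated relative of Gap43 in function, which gathers at the inner membrane and promotes sprouting. Its gene spans chr15:25363277-25413764 (minus strand). It was at 145, 132 and 133 under the control label and at 92.0, 136 and 280 under the cKO label. The libraries labelled control lay close together, while those labelled cKO lay below, among and above them. Between labels the log2 fold change was 0.16 (SE 0.40, 95% interval -0.73 to 1.04). It was 0.31 in edgeR, 0.28 in DESeq2 and 0.42 with array weights, which give less weight to libraries that deviate more. Without cKO replicate 1 it was 0.51, without cKO replicate 2 it was 0.24, and without cKO replicate 3, the library with the highest pan-neuronal sum, it was -0.28.

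Stathmins bind tubulin pairs and favour the disassembly of microtubules. Stmn2, found in growing neurites and on chromosome 3 from 8509360 to 8561606, was at 57.6, 138 and 69.3 under the control label and at 23.0, 101 and 207 under the cKO label. The lowest and the highest library both carried the label cKO and differed 9.01-fold. The log2 fold change was -0.06 (SE 0.68, 95% interval -1.57 to 1.45), so its sign was not fixed: edgeR gave 0.31 and DESeq2 0.28, and leaving out 1 library gave -0.31, 0.31 and -0.18 for control replicates 1, 2 and 3 and 0.81, -0.23 and -0.75 for cKO replicates 1, 2 and 3. Stmn3, on chromosome 2 from 181306459 to 181314500, was at 46.8, 77.5 and 60.6 and at 28.6, 131 and 177. Again cKO replicate 1 was lowest and cKO replicate 3 highest, with all libraries labelled control between them. The log2 fold change of Stmn3 was 0.53 (SE 0.59, 95% interval -0.78 to 1.84). It was 0.86 in edgeR, 0.84 in DESeq2 and 0.80 with array weights. Without control replicate 1 it was 0.35, and without cKO replicates 1, 2 and 3 in turn it was 1.32, 0.24 and 0.028.

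Stmn4, the third of these stathmins, had another order of libraries. Its gene is on chromosome 14 from 66344296 to 66361680. It was at 250, 181 and 188 under the control label and at 266, 97.3 and 153 under the cKO label. Here cKO replicate 1 was the highest library and cKO replicate 2 the lowest, and the groups overlapped through cKO replicate 1. For Stmn4 the log2 fold change was -0.37 (SE 0.38, 95% interval -1.22 to 0.48). Without control replicate 1 it was -0.22, without cKO replicate 1 it was -0.74, and without cKO replicate 2 it was -0.019. Without both libraries numbered 2 it was -0.11. The ratio of Stmn2 to Stmn4 within a library, not corrected for length, was 0.230, 0.766 and 0.368 under the control label and 0.0865, 1.04 and 1.35 under the cKO label. That is a 15.7-fold range, against a 2.32-fold range for the ratio of Stmn2 to Stmn3.

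**Figure D2:**
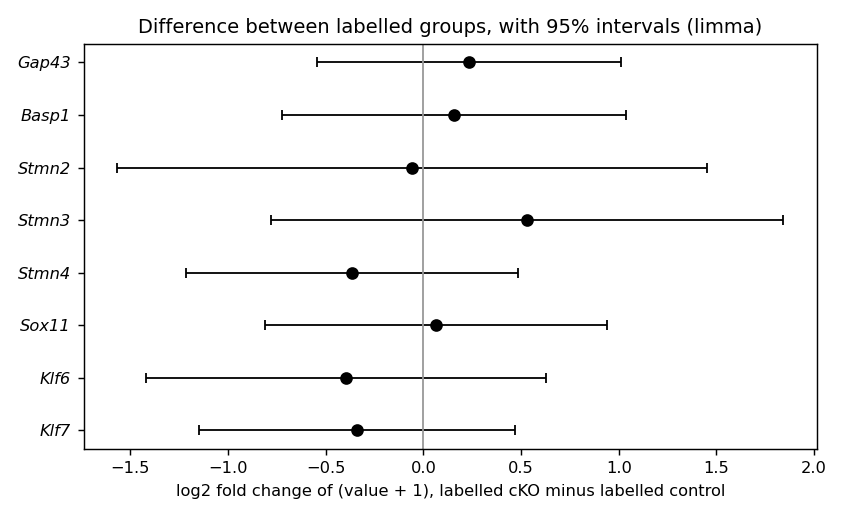
Log2 fold change of (scaled CPM + 1), labelled cKO minus labelled control (horizontal axis), for the 8 tested genes, with limma's 95% intervals over 3 libraries per group. All 8 intervals include 0, and the widest belongs to Stmn2, from -1.57 to 1.45.

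Among the transcription factors, Sox11 belongs to the SoxC group, acts in newborn neurons and promotes axon regrowth in sensory neurons. The gene spans chr12:27334264-27342574 (minus strand). It was at 38.2, 29.3 and 69.3 under the control label and at 49.6, 40.3 and 44.8 under the cKO label. The libraries labelled cKO all fell inside the range of the controls, whose replicate 3 was highest. Its log2 fold change was 0.06 (SE 0.39, 95% interval -0.81 to 0.94), and edgeR and DESeq2 gave values just under 0, -0.024 and -0.040. Leaving out control replicates 1, 2 and 3 in turn gave -0.015, -0.20 and 0.41, and leaving out cKO replicates 1, 2 and 3 gave -0.0079, 0.14 and 0.06.

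Klf6 and Klf7 are Krüppel-like zinc finger factors that promote axon growth, unlike Klf4 and Klf9 of the same family, which restrain it. Klf6, on chromosome 13 from 5861482 to 5870394, was at 299, 114 and 194 under the control label and at 255, 86.5 and 131 under the cKO label. Replicate 1 was highest and replicate 2 lowest under both labels, and the groups overlapped. For Klf6 the log2 fold change was -0.40 (SE 0.46, 95% interval -1.42 to 0.63), and it was -0.06 without control replicate 1, -0.75 without control replicate 2, -0.81 without cKO replicate 1 and -0.039 without cKO replicate 2. Klf7, on chromosome 1 from 64029447 to 64122282, was at 40.1, 35.3 and 43.0 and at 39.9, 28.9 and 25.5. All but 1 library labelled cKO lay below the controls, the exception being cKO replicate 1. The log2 fold change of Klf7 was -0.34 (SE 0.36, 95% interval -1.15 to 0.47), with -0.52 without cKO replicate 1 and -0.21 without cKO replicate 3. The annotation places 2 genes on the opposite strand over Klf7, Gm13748 and Gm26649, and whether counting used the strand is not stated in the labels.

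The induced effectors were near the limit of detection. Sprr1a encodes a small proline-rich protein of the epidermis that is among the most strongly induced genes of injured sensory neurons. It had 1 read in all, in cKO replicate 3, of 97187952 reads over the 6 libraries. Pooled over the libraries labelled control, 0 of 42217921 reads allow up to 0.0874 CPM, the upper end of the exact Poisson 95% interval. The epidermal genes Krt5, Krt14 and Ivl were at 0 in all libraries, but others of the same marker list were detected. Krt10 was at 4.33, 2.80 and 3.67 under the control label and at 4.13, 11.6 and 5.22 under the cKO label. Krt1 and Lor reached at most 3.07 and 2.58. The related Sprr1b and Sprr2a1 were below the filter as well. Gal encodes galanin, a peptide that injured sensory neurons also make. It had 13, 13 and 0 reads under the control label and 22, 0 and 0 under the cKO label, or 1.20, 0.956, 0, 1.06, 0 and 0 scaled CPM. Reads for Gal were thus present in 3 libraries and absent from the other 3, across both labels. Pooled, it was at 0.616 CPM (exact Poisson 95% interval 0.402 to 0.902) under the control label and at 0.4002 CPM (0.251 to 0.606) under the cKO label. Both intervals cover counting error only, and these 2 genes were not tested.

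Stmn2, Stmn3 and Basp1 shared their lowest and highest library, cKO replicates 1 and 3, with the pan-neuronal markers. The mean log2 level of the pan-neuronal markers was 7.18, 7.9985 and 7.50 under the control label and 6.49, 8.15 and 8.502 under the cKO label. Stated relative to that mean, the SD of Stmn3 over the 6 libraries went from 0.95 to 0.29 on the log2 scale, and that of Stmn2 from 1.09 to 0.41. Relative to glutamatergic neuron markers, the SD of Stmn2 was 0.24. For Basp1 the SD went from 0.52 to 0.46. For the other 5 it became larger: 0.27 to 0.65 for Gap43, 0.41 to 0.94 for Sox11, 0.29 to 0.98 for Klf7, 0.70 to 1.36 for Klf6 and 0.52 to 1.19 for Stmn4. Dividing by the neuronal marker level thus narrowed the spread of Stmn2, Stmn3 and Basp1 and widened that of these 5. For Gap43 and Klf7, whose own spread was far below that of the markers, the widening was fixed in advance by that gap. It therefore does not show how Gap43 and Klf7 moved with the markers. Sox11 also had a smaller spread than the markers, so only a close correlation with them could have narrowed it.

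The SD of Stmn4 was 0.33 relative to oligodendrocyte precursor markers, its smallest, and 0.35 relative to mature oligodendrocyte markers. Klf6 and Klf7 had SDs of 0.49 and 0.27 relative to the mature oligodendrocyte markers, the smallest among the 9 marker lists used as a reference. For Sox11 the smallest was 0.32, relative to endothelial markers. For Gap43 every list gave a larger SD than its own level did. Relative to lists whose own spread was far above that of Gap43, such as the neuronal, astrocyte and pericyte ones, this was fixed in advance. The list with the smallest SD was picked for each gene after seeing all 9, so these SDs are descriptions over 6 libraries, and each gene shares its library's depth and cell mixture with the markers. The part of cell composition in these values was not tested.

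**Figure D3:**
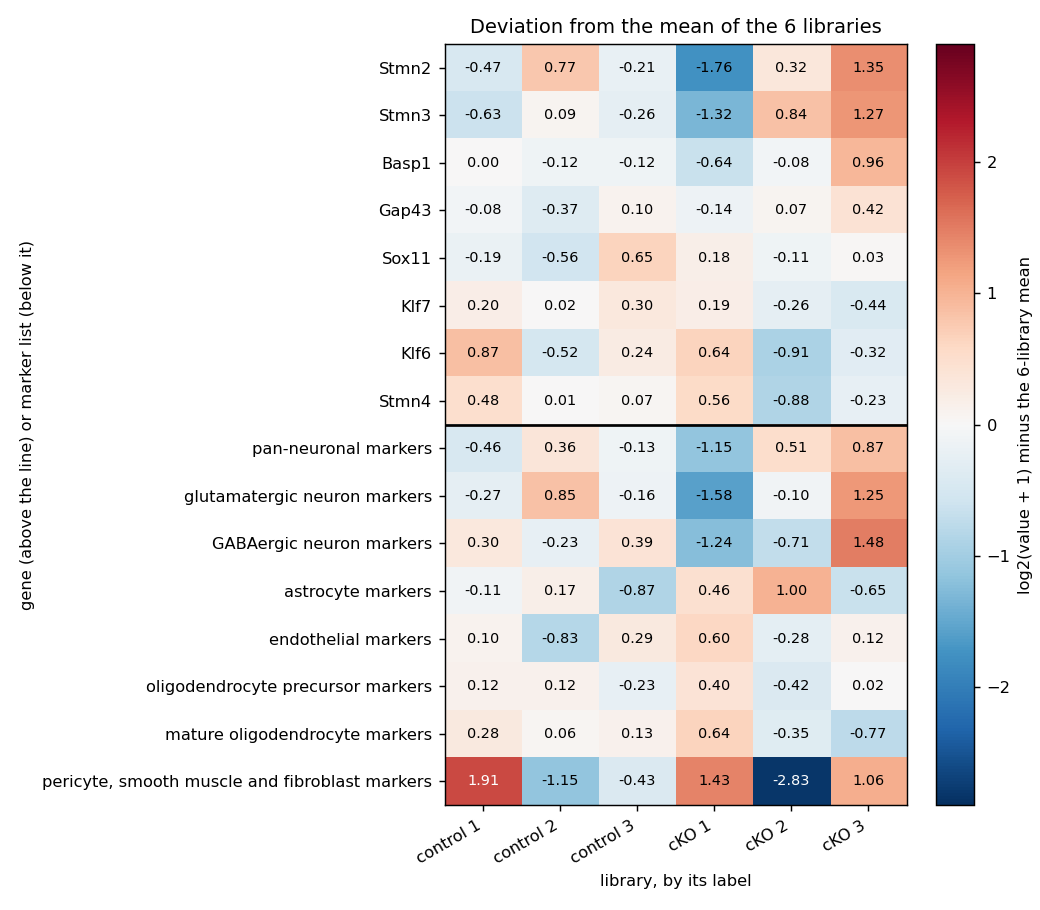
Deviation of each gene's log2(scaled CPM + 1) (rows above the line) and of each marker list's mean (rows below it) from the mean of the 6 libraries, with 1 column per library and red above, blue below that mean. Stmn2, Stmn3 and Basp1 are lowest in cKO replicate 1 (-1.76, -1.32 and -0.64) and highest in cKO replicate 3 (1.35, 1.27 and 0.96). The pan-neuronal markers share both libraries (-1.15 and 0.87). Stmn4 is highest in cKO replicate 1 (0.56), as are mature oligodendrocyte (0.64), endothelial (0.60) and oligodendrocyte precursor markers (0.40). Its lowest library is cKO replicate 2 (-0.88), as for the precursor markers (-0.42). The mature oligodendrocyte markers are lowest in cKO replicate 3 (-0.77).

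Relative to the neuronal level, the groups overlapped for all 8 genes. In exact permutation tests of the level relative to pan-neuronal markers, the smallest p was 0.2, for Stmn3, where 3 against 3 libraries cannot go below 0.1, and all 8 adjusted values were 1. For Stmn3 this relative level was -1.62 ± 0.07 under the control label and -1.24 ± 0.31 under the cKO label (SD, n = 3 each), a difference of 0.38, and the groups overlapped. For Klf6 the difference was -0.55 (exact permutation p = 0.7), for Stmn4 -0.52 (p = 0.7), for Klf7 -0.49 (p = 0.6) and for Stmn2 -0.21 (p = 0.5). Gap43, Basp1 and Sox11 differed by 0.08, 0.0031 and -0.09, each with an exact permutation p of 1.

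Thy1, by which cells were selected, stood at 107, 164 and 104 under the control label and at 75.1, 186 and 375 under the cKO label. Slc17a7 was at 116, 208 and 96.9 and at 51.9, 87.9 and 470. Both had their lowest value in cKO replicate 1 and their highest in cKO replicate 3, as did Stmn2, Stmn3 and Basp1. Slc32a1, at 11.1, 9.71 and 2.83 and at 5.52, 11.8 and 40.4, was also highest in cKO replicate 3 but lowest in control replicate 3.

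Among 10000 candidate genes with a mean of at least 10, the 4 most like Gap43 over the 6 libraries, by Pearson's r of log2(value + 1), were Spata2 (0.980), Acvr1c (0.980), Atp6v1a (0.976) and Tmem246 (0.968). The libraries' depth and cell mixture enter every gene, and 74 candidates reached 0.9 or more. Atp6v1a, a subunit of the proton pump of lysosomes and synaptic vesicles, was at 261, 162 and 295 and at 192, 265 and 498, with its lowest value in control replicate 2 and its highest in cKO replicate 3, as for Gap43.

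Among other genes of the axon growth programme, limma called 0 of 83 tested genes in 5 lists. Of 12 injury-induced transcription factors, 4 had a higher and 8 a lower mean log2 level under the cKO label (median log2 fold change -0.07). Among those with the smallest unadjusted p were Atf3, Stat3 and Cebpb. Atf3, a stress factor that marks injured neurons, was at 59.7, 30.7 and 143 under the control label and at 49.4, 28.6 and 31.9 under the cKO label, so 1 library, control replicate 3, stood above the rest (log2 fold change -0.83, SE 0.52). Stat3, the transducer of gp130 cytokines, had a log2 fold change of 0.25 and Cebpb one of -0.31.

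Of 14 other SoxC and Krüppel-like factors, 4 were higher and 10 lower, with a median of -0.24. The 4 with the smallest unadjusted p were Klf16, Klf3, Klf5 and Klf12, with log2 fold changes of -0.98, -0.44, -0.79 and 0.27. Klf16 and Klf5 were lowest in cKO replicate 2, at 0.101 and 0.404, and highest in cKO replicate 3, at 17.5 and 17.3. In cKO replicate 2 a value of 0.303 stands for 3 reads, so both low values rest on few reads. The groups overlapped in all 14.

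Of 15 axon injury kinases and adaptors, 13 were higher and 2 lower, with a median log2 fold change of 0.20, where 48% of all tested genes were higher. The 4 with the smallest unadjusted p in limma, from 0.17 to 0.41, were Map2k4, Mapk9, Mapk8 and Map2k7. They are kinases of the JNK pathway, which phosphorylates Stmn2. Others of this pathway in the list, Mapk10, Mapk8ip3, Map3k12 and Map3k13, had log2 fold changes of 0.38, 0.11, 0.04 and -0.05. Map2k4 was at 100, 111 and 97.3 under the control label and at 98.3, 166 and 176 under the cKO label (log2 fold change 0.47, SE 0.32). Mapk9 was at 118, 149 and 101 and at 102, 227 and 200 (log2 fold change 0.46, SE 0.36). In both, cKO replicate 1, the library with the lowest pan-neuronal sum, lay among the controls, and the part of the neuronal level in this was not tested.

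Of 26 other cytoskeletal and membrane proteins of the growth cone, 16 were higher and 10 lower, with a median of 0.04. Tubb3, the neuronal tubulin, was at 68.6, 70.0 and 93.4 under the control label and at 90.0, 144 and 137 under the cKO label (log2 fold change 0.66, SE 0.32). The groups overlapped only in that cKO replicate 1 lay below control replicate 3. Dpysl5, a collapsin response mediator, was at 18.1, 28.1 and 21.9 and at 16.6, 2.32 and 18.0, all libraries labelled cKO lying below the controls by a narrow margin (log2 fold change -1.17, SE 0.69). Crmp1 and Dpysl4, of the same family, had log2 fold changes of 0.64 and 0.59.

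Of 24 other effectors and neuropeptides, 16 were tested, with 8 higher and 8 lower and a median of -0.00013. The 4 with the smallest unadjusted p were all lower under the cKO label. Cd44, the hyaluronan receptor, was at 151, 167 and 354 and at 122, 57.2 and 73.4, without overlap between groups (log2 fold change -1.36, SE 0.41, unadjusted p = 0.008). Penk, the enkephalin precursor, was at 13.9, 19.3 and 9.06 and at 2.02, 1.31 and 9.68 (log2 fold change -1.79, SE 0.72). Crh, the corticotropin-releasing hormone gene, and Gadd45a, a stress-induced gene, had log2 fold changes of -1.47 (SE 0.78) and -1.39 (SE 0.79). None passed the adjusted threshold in limma (adjusted p = 0.9996 for each), and 2 of the 16, Cd44 and Penk, had an unadjusted p under 0.05, both lower, where 0.514% of all tested genes were lower and 0.338% higher at that threshold. They were among the genes chosen for naming by that p. Galr1, Galr3 and the galanin-like gene Galp, which belong to the galanin system, did not pass the filter on low values.

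**Figure D4:**
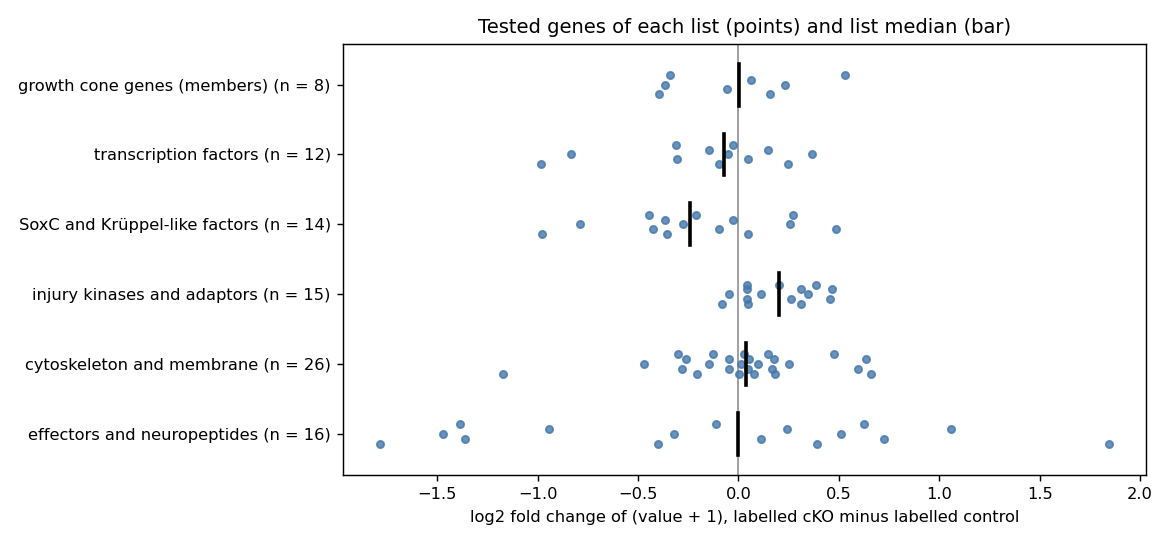
Log2 fold change of (scaled CPM + 1), labelled cKO minus labelled control (horizontal axis), of each tested gene (points) in the growth cone genes and 5 lists of related genes (rows), with the list median as a black bar. The median is at 0.0031 for the growth cone genes, and the lists run from -0.24 for SoxC and Krüppel-like factors to 0.20 for injury kinases and adaptors, with no gene past the adjusted threshold.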

How the data were processed

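RNA was measured in 6 libraries. Per the submitters' processing notes, the build was mm10 and the tools included HISAT2, Trimmomatic, edgeR and featureCounts; versions are not given there. The authors deposited a signal per gene symbol, which the values show to be read counts scaled per library. Column totals of 961962 to 1027958 differ from those of plain CPM, the unit first assumed, and the test was kept. For strand and counting annotation, the setting is not stated. Within each library 100% of the values lay within 0.001 of a whole multiple of 1 step, which gave whole reads back.

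Groups were compared on log2(value + 1) by limma 3.58.1 (R 4.3.3), whose variance prior followed the mean, over genes at 1 or more in at least 3 libraries, with Benjamini-Hochberg adjustment over all 14796 genes and a threshold of 0.05. Levels relative to 12 pan-neuronal markers were compared with exact two-sided permutation tests. Intervals for single genes of few reads are exact Poisson intervals at 95% and cover counting error only. Nothing in the labels ties replicates to different animals. The p-values therefore reflect only how far these samples differ, which may be technical.

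Alternatives were other pseudocounts, filters and scalings, array weights, a replicate block, each library left out, and count tests of the recovered reads with DESeq2 1.42.0 and edgeR 4.0.16. Leaving out both libraries numbered 2 was added after the data were seen, as were the reference lists other than pan-neuronal markers. The procedure was tested on simulated data with 200 changed genes. These had no differences in cell mixture between libraries, so they do not show how small a change could be found here. Promoters are from the RefSeq table of GRCm38.p6, which held 7 of the 10 genes, and gene models from GENCODE M21. Both share coordinates with mm10.

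The genes, the 5 lists of other growth genes and the marker lists were chosen with earlier results of these data known. Besides the 10 genes, the text names Padi4, sort and Cre driver genes, up to 4 genes per list by smallest unadjusted p, and the genes most like Gap43; some results under this rule are not reported here. Others are named as chosen after their values were seen.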

Additional observations from a re-analysis of the deposited data

How the results depend on the processing

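No alternative called any of the 8 tested genes, the adjusted p running from 0.732 to 1. Over all genes DESeq2 called 1 gene lower (Ifit3, an interferon-induced gene named after its value was seen), where limma and edgeR called 0. The sign of Stmn2 turned to a log2 fold change of 0.48 with array weights, 0.31 with edgeR, 0.28 with DESeq2 and 0.14 without both libraries numbered 2, and that of Sox11 to -0.18, -0.024, -0.040 and -0.13. Leaving out 1 library gave -0.75 to 0.81 for Stmn2, -0.20 to 0.41 for Sox11 and -0.28 to 0.51 for Basp1. The number of genes whose groups did not overlap was 0 to 3 without 1 library: 1 without control replicate 2 (Klf7), where 11.7% of all tested genes did so, 1 without control replicate 3 (Sox11; 9.22%) and 3 without cKO replicate 1 (Stmn3, Stmn4 and Klf7; 22.2%). It was 1 (Klf7) without both libraries numbered 2, beside 20% of all tested genes. Relative to pan-neuronal markers, leaving out 1 library gave -0.40 to 0.33 for Gap43, -0.25 to 0.30 for Basp1, -0.51 to 0.044 for Stmn2, -1.50 to 0.047 for Stmn4, -0.77 to 0.31 for Sox11, -1.58 to 0.027 for Klf6 and -1.28 to 0.036 for Klf7. Gap43 was at -0.021 without both libraries numbered 2, and Basp1 at -0.0039 with a pseudocount of 5. The cause of these turns was not tested.

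With the replicate number as a block, 0 genes were called higher and 0 lower, as without it. Same-numbered libraries had correlated deviations of 0.49, 0.30 and 0.03, so the numbers did not pair the libraries by the rule used. Each library's deviations correlated best with those of its own number. For number 3 the margin was very small: control replicate 3 had 0.034 with cKO replicate 3 and 0.028 with cKO replicate 2. Deviations were taken from each group's mean, so those within a group were tied to each other.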

Other observations

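The genes given here were chosen after their values were seen. Il6, a cytokine that acts through gp130, was at 25.1, 0 and 0.334 under the control label and at 29.7, 2.02 and 16.5 under the cKO label. Lif, of the same cytokine family, was at 18.7, 0 and 6.56 and at 11.99, 0 and 8.08. The collagen gene Col1a1 was at 1205, 60.0 and 48.9 and at 624, 3.54 and 641. Control replicate 1, cKO replicate 1 and cKO replicate 3 were thus highest for Il6, Lif and Col1a1. The interneuron peptide gene Vip, at 128, 19.3 and 28.9 and at 35.6, 11.01 and 89.5, was highest in the same 3 libraries. Npy, another interneuron peptide gene, had another order, at 19.6, 3.16 and 44.8 and at 4.65, 34.3 and 71.3.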
